A study of Mus musculus with 14 samples.

Results

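Genes of GABA and glycine transmission were followed through the cell types of the mouse retina and brain. The set holds 27 named genes: the enzymes *Gad1* and *Gad2*, the transporters *Slc32a1*, *Slc6a5* and *Slc6a9*, 13 GABAA receptor subunits, 4 glycine receptor subunits, the scaffold *Gphn*, the adhesion gene *Nlgn2*, the GABAB receptor genes *Gabbr1* and *Gabbr2*, and the chloride transporter *Slc12a5*. The genes were chosen by name from the pathway, and 24 other genes of it are given at the end. All 27 were among the 28316 genes of the retina matrix and among the 26528 genes of the brain matrix. Their unique molecular identifiers (UMIs, a tag on each captured transcript) were added up for every cell type label within a library and scaled to all UMIs of those nuclei, in the unit CPM.

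The study asked what loss of TGF-beta signaling in endothelial cells (ECs) does to central nervous system vessels and tissue, and profiled nuclei with PIPseq, a droplet method for single nuclei. Retinas of *Cdh5CreER;Tgfbr1 CKO/-* mice (CKO) gave 11 libraries and control retinas 1 library. Vascular fragments enriched from brain gave 1 library of each genotype, each from 2 pooled brains. In CKO mice 1 *Tgfbr1* allele was null and the other was removed by Cre driven from the EC gene *Cdh5* (VEcadCreER in the series text) after 4-hydroxytamoxifen on postnatal days 3 to 5. The age was written as P14 in 1 source and as young adult in another. Controls were labelled WT, and the paper describes controls of these crosses as phenotypically wild type, typically *Cdh5CreER;Tgfbr1 CKO/+*, so Cre and hydroxytamoxifen may have been present in them too. Cre was active in ECs, so neurons and glia kept the floxed allele, and no retinal label was an EC label. How many mice went into each retinal library was not stated, and the spread between libraries may include technical differences.

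GABA and glycine are the main inhibitory transmitters of the central nervous system. In the retina they are released mainly by amacrine and horizontal cells onto bipolar, ganglion and other amacrine cells, whereas photoreceptors and bipolar cells release glutamate. Fast inhibition runs through pentameric chloride channels, whose subunits set location, transmitter sensitivity and decay, and the subunits encoded by the *Gabrr* genes form the slow GABA channels known from bipolar cell terminals.

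The control retina library held 11513 nuclei and 30989702 UMIs, and CKO retina libraries held 90449 to 55803724 UMIs (median 16443337). Members made up 0.273% of UMIs in the control library and 0.255 to 0.291% (median 0.271%) in the CKO libraries. Only 10 of the barcodes of 77676 retinal nuclei occurred in more than 1 library. CKO replicate 4 stood apart with 104 nuclei, of which 65 had the immune label. Of the types ranked here, it passed the minimum of 20 nuclei and 20000 UMIs for retinal ganglion cells (RGCs), with 25 nuclei and 36147 UMIs, and for no other. In curation by hand, the authors had also removed clusters that held multiple nuclei of replicates 4 and 5. Without replicate 4 the RGC mean fell from 303 to 245 CPM for *Gabrb1*, from 316 to 256 CPM for *Gabrb2* and from 82.3 to 59.6 CPM for *Gabbr1*, an alternative chosen after seeing the data, and the type with the highest level stayed the same for all 27 members.

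Retinal labels were checked against 4 marker genes each. All 4 markers of rods, cones, rod bipolar cells (RBCs), horizontal cells (HCs), RGCs and astrocytes were highest in the type of that name. The same held for 3 of 4 markers of cone bipolar cells (CBCs) and of Müller glia. Amacrine cells came under 2 labels, GABAergic (GABA_AC) and glycinergic (Gly_AC), and *Tfap2a* and *Tfap2b* were highest in GABA_AC and *Tfap2c* in Gly_AC, while *Pax6* was highest in Müller glia. Rod markers were found under every label. The 4 of them summed to 4210 CPM in rods, 1927 CPM in cones, 1415 CPM in Müller glia and 754 CPM in GABA_AC, the lowest. The part of rod RNA in the levels of other types was not tested. These labels came from clusters of the same counts, so differences between cell types are given as a description, without a test. Astrocytes passed the minimum in 4 CKO libraries and not in the control. Their label was also the highest ranked type for the pericyte marker *Rgs5*, at 545 CPM, and the fibroblast marker *Col1a2*, at 349 CPM. The other 3 pericyte markers and 2 of 4 fibroblast markers were at 0 CPM there. Whether other cells were under this label was not tested. The immune label had all 4 immune markers at their highest, and it was left out of the ranking of types.

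*Gad1* and *Gad2* encode the glutamate decarboxylases that make GABA. *Gad1* was highest in GABA_AC, at 214 ± 43.6 CPM (SD, n = 11), with 201 CPM in the control library and 156 to 293 CPM (median 192) in 10 CKO libraries. HCs followed at 23.1 ± 17.2 CPM, and Gly_AC held 8.93 ± 3.26 CPM. Every library with both types had more *Gad1* in GABA_AC than in HCs, and the ranges did not overlap. *Gad2* was also highest in GABA_AC, at 124 ± 20.8 CPM (SD, n = 11), where the control library held 127 CPM and the CKO libraries 91.2, 123 and 156 CPM at their lowest, median and highest. For *Gad2*, however, Gly_AC was the second type, at 64.5 ± 12.8 CPM, where HCs had been second for *Gad1*. This was below GABA_AC in all 11 libraries and above the 17.5 CPM of RGCs (without replicate 4) and 18.6 CPM of HCs. Rods held 1.62 CPM of *Gad1* and 0.617 CPM of *Gad2*.

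*Slc32a1* encodes the vesicular transporter that loads GABA and glycine, and was low. Its mean was 20.6 ± 11.4 CPM (SD, n = 11) in GABA_AC and 15.7 ± 7.82 CPM in Gly_AC, and GABA_AC was the higher in 8 of 11 libraries. In GABA_AC there were 17.3 CPM in the control library and 4.96 to 38.7 CPM (median 18.2) in 10 CKO libraries. The value moved with kit and batch: it was 31.1 CPM over the libraries of the v5.0 kit and 11.7 CPM over those of batch 1, though GABA_AC was the highest type in both.

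*Slc6a5* encodes GlyT2, the plasma membrane glycine transporter of glycine-releasing neurons in spinal cord and brainstem, and *Slc6a9* encodes GlyT1, the glycine transporter of glycinergic amacrine cells and of glia. *Slc6a9* was highest in Gly_AC, at 187 ± 34.5 CPM (SD, n = 11), with 171 CPM in the control library and 144 to 266 CPM (median 179) in 10 CKO libraries. The next types were rods at 50.1 ± 5.64 CPM and cones at 43.8 ± 8.42 CPM, ahead of GABA_AC at 20.6 CPM and Müller glia at 16.4 CPM. The rod level lay within 38.5 to 60.9 CPM over 11 libraries, and was above the Müller glia level in each of them. *Slc6a9* overlaps 2 protein-coding genes on the other strand, *B4galt2* and *Ccdc24*, and *Slc12a5* overlaps *Ncoa5*. Whether counting took strand into account was not stated, so a part of these UMIs may belong to the overlapping genes.

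*Slc6a5* was present in both amacrine labels. Gly_AC held 74.6 ± 21.5 CPM (SD, n = 11), with 74.9 CPM in the control library and 51.1 to 127 CPM (median 73.2) in 10 CKO libraries, and GABA_AC held 45.7 ± 10.0 CPM. Gly_AC was higher in all 11 libraries, but the ranges of both types overlapped. HCs followed at 10.3 CPM, and rods, cones and RBCs were at most at 0.0729 CPM.

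The share of nuclei with at least 1 UMI showed the same order for *Gad1* and *Gad2*. In GABA_AC, 55.8% of nuclei had a *Gad1* UMI and 38.7% a *Gad2* UMI at a median depth of 4708 UMIs, whereas in Gly_AC the shares were 3.15% and 21.5% at a median depth of 3654 UMIs. Rods, which should lack both genes, had 0.219% and 0.0804% at a median depth of 1064 UMIs. With each nucleus thinned to 1000 UMIs, *Gad2* was seen in 13.2% of GABA_AC, 7.15% of Gly_AC and 0.0233% of rods, so the Gly_AC share was far above the rod background at equal depth. Thinning left out 779 of 6894 GABA_AC nuclei, 648 of 6474 Gly_AC nuclei and 19268 of 41020 rod nuclei.

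*Slc6a5* UMIs were found in 21.3% of Gly_AC, 13.3% of GABA_AC and 0.0122% of rod nuclei, and after thinning in 7.59%, 4.32% and 0.00518%. *Slc6a9* differed from the other 3 genes. It was found in 46.8% of Gly_AC, 12.1% of cones and 7.55% of rods, and after thinning in 18.2%, 4.20% and 5.33%, against 1.11% of thinned RGCs and 1.29% of thinned GABA_AC. Rods thus cannot serve as the background for *Slc6a9*, because their level and their thinned share were both above those of several inner retinal types.

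**Figure D1:**
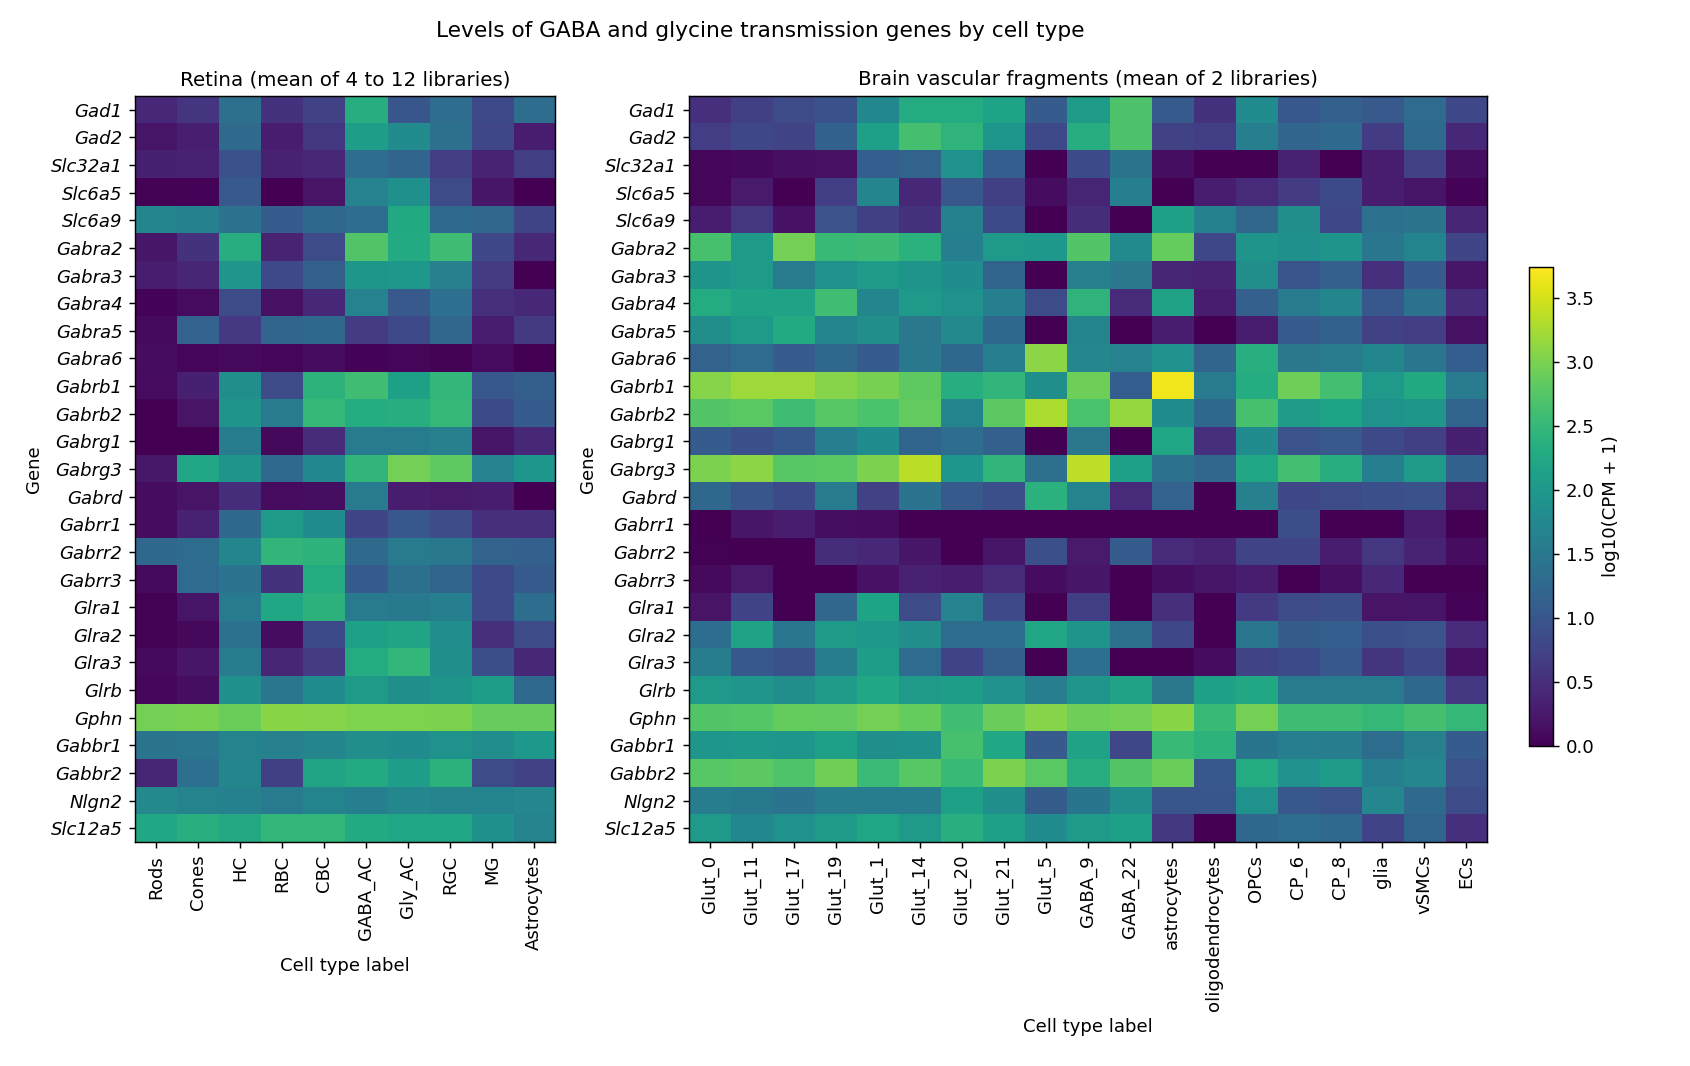
Mean level of the 27 genes (y axis) in each retinal and brain cell type label (x axis), as log10(CPM + 1) in color. Retinal means are over 4 to 12 libraries and brain means over 2. *Gphn* is high in every column, *Gad1* is high in GABA_AC of the retina and in GABA_22, Glut_14, Glut_20 and Glut_21 of the brain, and *Gabra6* is high in Glut_5.

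Alpha subunits form, with beta subunits, the GABA binding sites of most GABAA receptors. *Gabra2*, an alpha subunit common at synapses, had its highest level in GABA_AC, at 537 ± 77.3 CPM (SD, n = 11), with 569.8 CPM in the control library and 417 to 684 CPM (median 514) in 10 CKO libraries. RGCs held 382 ± 86.5 CPM, HCs 215 ± 72.8 CPM and Gly_AC 192 ± 44.5 CPM, while CBCs and RBCs held 6.45 and 1.29 CPM. *Gabra2* thus separated amacrine, ganglion and horizontal cells from bipolar cells and photoreceptors.

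*Gabra3* was close in 3 types: Gly_AC held 99.1 ± 10.4 CPM (SD, n = 11), GABA_AC 96.5 ± 18.8 CPM and HCs 89.2 ± 37.2 CPM, and Gly_AC were above GABA_AC in 8 of 11 libraries. In Gly_AC there were 108 CPM in the control library and 77.5 to 113 CPM (median 97.0) in 10 CKO libraries. *Gabra4*, found with the delta subunit in extrasynaptic receptors, reached 44.3 ± 14.6 CPM (SD, n = 11) in GABA_AC, with 47.1 CPM in the control library and 28.4 to 72.0 CPM (median 40.5) in 10 CKO libraries, and RGCs held 19.7 ± 8.70 CPM without replicate 4. *Gabra5*, another largely extrasynaptic subunit, was spread over CBCs at 17.1 ± 3.79 CPM (SD, n = 11), RBCs at 15.2 ± 5.57 CPM, cones at 14.1 ± 5.29 CPM and RGCs at 12.7 ± 3.39 CPM without replicate 4. In CBCs there were 19.8 CPM in the control library and 11.0 to 23.2 CPM (median 18.2) in 10 CKO libraries, and CBCs were above RGCs in 10 of the 11 libraries with both types. *Gabra6*, the alpha subunit of cerebellar granule cells, was close to absent, with 21 UMIs in all rods and a highest mean of 0.346 ± 0.246 CPM (SD, n = 11), where the control library held 0.465 CPM and the CKO libraries 0, 0.306 and 0.778 CPM at their lowest, median and highest. That mean was in rods, which were above CBCs in 5 of 11 libraries, and it was 0.118 CPM over the libraries of the v5.0 kit.

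Set out as shares of the 5 listed alpha subunits, *Gabra2* took 85.0% of alpha UMIs in RGCs, 79.0% in GABA_AC, 69.0% in HCs and 63.5% in Gly_AC. *Gabra5* took 79.6% in cones, 70.0% in RBCs and 46.7% in CBCs, compared to 0.528% in GABA_AC. Cone and bipolar nuclei therefore led in a different listed alpha subunit from amacrine, horizontal and ganglion cells. Because long genes gather more UMIs from nuclear RNA, shares were also computed per kb of gene length, and the leading alpha subunit was the same in 8 of 9 types. The exception was rods, where the leader by UMIs was *Gabra3* and per kb *Gabra6*, both from few UMIs.

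Beta subunits are needed for assembly and for binding GABA. *Gabrb1* was highest in GABA_AC, at 394 ± 86.7 CPM (SD, n = 11), with 470.3 CPM in the control library and 307 to 564 CPM (median 349) in 10 CKO libraries, followed by CBCs at 264 ± 85.4 CPM and RGCs at 245 ± 49.1 CPM (SD, n = 11, without replicate 4). *Gabrb2* was highest in CBCs, at 318 ± 52.3 CPM (SD, n = 11), with 311 CPM in the control library and 246 to 428 CPM (median 311) in 10 CKO libraries, followed by RGCs at 256 ± 40.3 CPM without replicate 4 and Gly_AC at 219 ± 30.5 CPM. The amacrine labels differed in their balance: *Gabrb1* took 65.3% of both beta genes in GABA_AC (libraries 59.5 to 72.5%) and 37.4% in Gly_AC (libraries 31.1 to 44.1%). RBCs were at the other end, with 85.5% *Gabrb2*. Per kb of gene, *Gabrb2* led in all 7 types with at least 50 beta UMIs, and the difference between amacrine labels remained, at 44.3% against 20.2% *Gabrb1*.

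Gamma subunits anchor receptors at synapses, and the delta subunit replaces them in extrasynaptic receptors that carry tonic current. *Gabrg3* was highest in Gly_AC, at 919.7 ± 119 CPM (SD, n = 11), with 1230.3 CPM in the control library and 797 to 999.9 CPM (median 895) in 10 CKO libraries. RGCs held 662 ± 143 CPM and GABA_AC 289 ± 46.3 CPM, and cones held 159.6 ± 62.3 CPM (libraries 1.54 to 252), against 0.726 CPM in rods. *Gabrg3* thus set Gly_AC and RGCs apart from GABA_AC, and cones apart from rods in the mean. *Gabrg1* was mainly in 4 types, RGCs at 42.4 ± 16.9 CPM (SD, n = 12), HCs at 36.7 ± 11.1 CPM, GABA_AC at 35.6 ± 7.42 CPM and Gly_AC at 34.1 ± 5.21 CPM, and in RGCs there were 33.8 CPM in the control library and 27.7 to 81.4 CPM (median 35.5) in 11 CKO libraries.

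*Gabrd* had its level concentrated in 1 retinal type. GABA_AC held 33.5 ± 3.85 CPM (SD, n = 11), with 32.8 CPM in the control library and 27.02 to 40.4 CPM (median 33.0) in 10 CKO libraries, and HCs, the next type, held 2.11 ± 3.39 CPM. The lowest GABA_AC library was above the highest HC library, and Gly_AC held 0.929 CPM. By UMIs, *Gabrg3* led among *Gabrg1*, *Gabrg3* and *Gabrd* in all 9 types, but *Gabrg3* spans 671 kb and *Gabrd* 13.5 kb. Per kb, *Gabrd* took 75.9% of these 3 genes in GABA_AC, compared to 3.69% in Gly_AC and 4.56% in RGCs. Cones, CBCs and HCs lay between, at 17.6%, 24.4% and 24.7%. In types with few UMIs of the class the *Gabrd* share per kb was also high, at 95.2% in rods from 25 *Gabrd* UMIs, 44.3% in RBCs from 5 and 42.1% in Müller glia from 11.

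**Figure D2:**
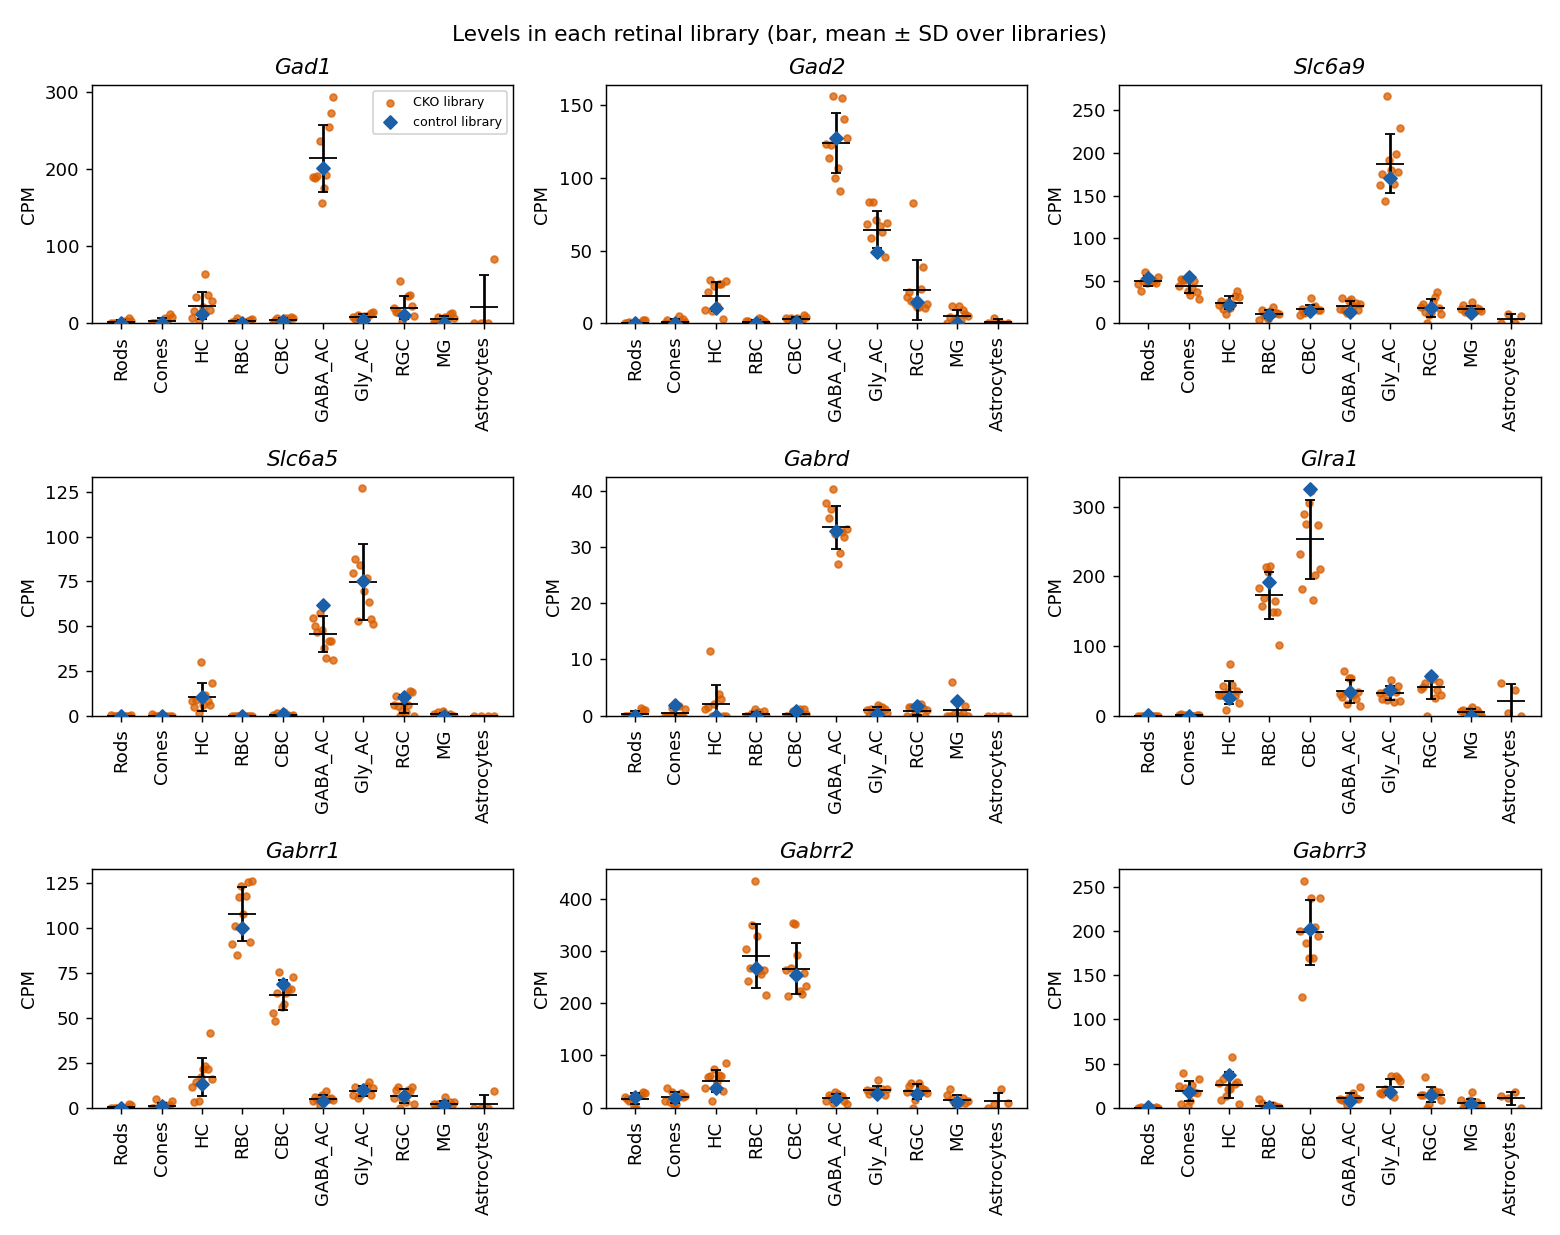
Level in CPM (y axis) of 9 genes in each retinal cell type label (x axis), for the control library (blue diamonds) and each CKO library (orange circles), with the mean and SD over libraries as black bars. *Gad1* and *Gabrd* stand out in GABA_AC, *Slc6a9* in Gly_AC with rods and cones next, and *Gabrr3* in CBCs, and control values lie among the CKO values in most types.

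Subunits of the *Gabrr* genes form GABA channels that desensitize little. *Gabrr1* was highest in RBCs, at 108 ± 14.9 CPM (SD, n = 11), with 99.9 CPM in the control library and 84.8 to 126 CPM (median 112) in 10 CKO libraries, and CBCs held 62.9 ± 8.31 CPM, lower in all 11 libraries and without overlap. *Gabrr2* was at 290.0 ± 61.2 CPM (SD, n = 11) in RBCs, with 268 CPM in the control library and 216 to 434 CPM (median 265) in 10 CKO libraries, and at 266 ± 49.0 CPM in CBCs, with RBCs above CBCs in 9 of 11 libraries. *Gabrr3* was the CBC member: CBCs held 198 ± 37.1 CPM (SD, n = 11), with 203 CPM in the control library and 125 to 257 CPM (median 197) in 10 CKO libraries, HCs 25.6 ± 14.5 CPM, and RBCs 2.51 ± 3.18 CPM. *Gabrr3* therefore divided the bipolar classes, both of which held *Gabrr2*.

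Among the 3 *Gabrr* genes, RBCs had 72.5% *Gabrr2*, 26.8% *Gabrr1* and 0.657% *Gabrr3*, and CBCs had 51.2%, 12.1% and 36.7%. The *Gabrr3* share ranged over 0 to 2.60% in RBC libraries and over 29.3 to 43.8% in CBC libraries. Rods held 17.7 ± 9.70 CPM of *Gabrr2*, and their 1351 *Gabrr* UMIs were 97.5% *Gabrr2* (exact binomial 95% interval 96.5 to 98.3%, counting error only; single libraries 0 to 100%, median 97.7%). *Gabrr1* and *Gabrr3* took 1.55% and 0.962%, a pooled mix unlike that of RBCs or CBCs, and the part of RNA from other cells in it was not tested. Cones had 50.5% *Gabrr2* and 47.4% *Gabrr3*. *Gabrr2* led in all 9 types by UMIs and also per kb.

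*Gabrr2* and *Gabrr1* are neighbours on chromosome 4 (GRCm39), *Gabrr2* at chr4:33062937-33096126 and *Gabrr1* at chr4:33125923-33163588, both on the plus strand, 29.8 kb apart with 0 protein-coding genes between them. *Gabrr3* lies apart at chr16:59227695-59284867, also on the plus strand. Other members sit in receptor gene clusters: *Gabrg1* and *Gabra2* are 115 kb apart on chromosome 5, *Gabra4* and *Gabrb1* overlap head to head by 267 bases on the same chromosome, *Gabrg3* and *Gabra5* are 18.2 kb apart on chromosome 7, and *Gabra6* and *Gabrb2* are 98.6 kb apart on chromosome 11. In the retina *Gabrg1* and *Gabra2* reached 10 CPM in the same 4 types, RGCs, HCs, GABA_AC and Gly_AC, and *Gabra4* and *Gabrb1* were both highest in GABA_AC, whereas *Gabra6* was near 0 in CBCs, the highest type of *Gabrb2*.

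The promoters of the 3 *Gabrr* genes, 250 bases before to 50 bases after the RefSeq start, are given because each of these genes had its highest retinal level in a bipolar class, RBCs for *Gabrr1* and *Gabrr2* and CBCs for *Gabrr3*. They are from RefSeq on GRCm38.p6, at chr4:33132306-33132605 for *Gabrr1*, chr4:33062862-33063161 for *Gabrr2* and chr16:59407132-59407431 for *Gabrr3*, all on the plus strand, written 5′ to 3′. On GRCm39 the *Gabrr1* window begins 6383 bases inside the gene as placed above, so it belongs to a later start than the first one annotated there. Capitals mark TAATCC or its reverse complement GGATTA, a core recognized by the CRX and OTX2 homeodomain factors of photoreceptors and bipolar cells. The letters occurred 1 time in *Gabrr2* and not in the windows of *Gabrr1* or *Gabrr3*. They occurred in 7.06% of 32851 mouse promoters of this length and in 4 of the 33 promoters matched to 25 members, and a match is a description of the letters only.
Gabrr1: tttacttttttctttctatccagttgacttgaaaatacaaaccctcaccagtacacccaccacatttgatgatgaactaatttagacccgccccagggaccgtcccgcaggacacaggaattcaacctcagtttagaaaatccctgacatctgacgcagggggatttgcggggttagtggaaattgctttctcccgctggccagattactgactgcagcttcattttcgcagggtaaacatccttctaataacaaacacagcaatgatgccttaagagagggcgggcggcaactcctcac
Gabrr2: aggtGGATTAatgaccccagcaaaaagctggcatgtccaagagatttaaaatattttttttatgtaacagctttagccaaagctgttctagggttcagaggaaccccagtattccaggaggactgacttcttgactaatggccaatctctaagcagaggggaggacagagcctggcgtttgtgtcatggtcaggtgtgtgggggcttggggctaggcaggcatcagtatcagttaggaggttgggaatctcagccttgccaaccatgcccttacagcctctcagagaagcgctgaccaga
Gabrr3: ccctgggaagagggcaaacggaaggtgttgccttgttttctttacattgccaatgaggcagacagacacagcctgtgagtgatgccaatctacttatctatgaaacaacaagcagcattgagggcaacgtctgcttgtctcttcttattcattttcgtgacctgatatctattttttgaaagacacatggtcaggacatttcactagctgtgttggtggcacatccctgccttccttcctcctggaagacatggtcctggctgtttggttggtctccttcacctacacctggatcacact

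Glycine receptors combine alpha subunits, which bind glycine, with the beta subunit *Glrb*, which ties them to gephyrin. *Glra1*, the alpha subunit of adult spinal cord, was highest in CBCs, at 253 ± 56.9 CPM (SD, n = 11), with 326 CPM in the control library and 166 to 322 CPM (median 253) in 10 CKO libraries, and RBCs held 173 ± 34.0 CPM. *Glra2* was highest in the amacrine labels, at 155 ± 28.3 CPM (SD, n = 11) in Gly_AC and 135 ± 19.6 CPM in GABA_AC, and in Gly_AC there were 203 CPM in the control library and 126 to 212 CPM (median 143) in 10 CKO libraries. *Glra3* had the same order, at 305 ± 70.7 CPM (SD, n = 11) in Gly_AC, with 260.4 CPM in the control library and 217 to 466 CPM (median 297) in 10 CKO libraries, and 203 ± 18.6 CPM in GABA_AC, and Gly_AC was higher in all 11 libraries.

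*Glra1* took 99.3% of the 3 alpha genes in RBCs and 96.9% in CBCs, but 6.04% in Gly_AC and 8.36% in GABA_AC. RGCs were mixed, with 23.1% *Glra1*, 36.4% *Glra2* and 40.5% *Glra3*. Per kb the leader was the same in 4 of 7 types, and in HCs, RGCs and Müller glia it became *Glra1*. *Glrb* did not follow the alpha genes. Its highest level was in Müller glia, at 124 ± 26.7 CPM (SD, n = 11), with 121 CPM in the control library and 88.6 to 174 CPM (median 125) in 10 CKO libraries, and GABA_AC followed at 109 ± 11.5 CPM, within 1 SD. Müller glia held 5.64, 2.37 and 6.83 CPM of *Glra1*, *Glra2* and *Glra3*, all far below the highest type of each gene. Rods held 0.122 CPM of *Glrb*, and cones 0.382 CPM.

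*Gphn* encodes gephyrin, which holds GABAA and glycine receptors at synapses and also works in molybdenum cofactor synthesis in all cells. It was high in every type, from 743 CPM in Müller glia to 1200.2 ± 93.3 CPM (SD, n = 11) in RBCs, with 1081 CPM in the control library and 1100.0 to 1356 CPM (median 1191) in 10 CKO libraries. *Nlgn2*, the neuroligin of inhibitory synapses, was also found in every type, at 56.6 ± 13.9 CPM (SD, n = 11) in rods, with 59.6 CPM in the control library and 25.4 to 82.9 CPM (median 58.6) in 10 CKO libraries, and 35.0 CPM in RBCs, the lowest. *Slc12a5* encodes KCC2, which exports chloride and makes GABA and glycine hyperpolarizing. RBCs held 307 ± 22.7 CPM (SD, n = 11), with 284 CPM in the control library and 268 to 341 CPM (median 313) in 10 CKO libraries, CBCs 301 ± 31.7 CPM and cones 225 ± 36.2 CPM, and astrocytes and Müller glia the least, at 46.6 and 75.1 CPM. For *Slc12a5*, RBCs were above CBCs in 7 of 11 libraries.

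GABAB receptors are G protein-coupled dimers of both *Gabbr1* and *Gabbr2* products. *Gabbr2* was graded by type: RGCs held 256 ± 57.3 CPM (SD, n = 12), with 208 CPM in the control library and 185 to 359.6 CPM (median 259) in 11 CKO libraries, GABA_AC 194 ± 29.2 CPM, CBCs 152 ± 23.2 CPM and Gly_AC 126 ± 20.0 CPM, but RBCs 4.11 CPM and rods 1.42 CPM. *Gabbr1* ranged from 26.5 CPM in rods to 101 ± 24.9 CPM (SD, n = 4) in astrocytes, whose 4 CKO libraries ranged from 74.5 to 133 CPM (median 97.2). RBCs and CBCs thus differed in *Gabbr2* as in *Gabrr3*.

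The brain libraries held 16649 control nuclei with 49798325 UMIs and 14675 CKO nuclei with 31033373 UMIs, and 2 barcodes of 31324 nuclei were shared. Members made up 0.407% of UMIs in control and 0.393% in CKO. Of 21 labels, 19 passed the minimum in both libraries. With 1 library per genotype, brain values are given as both libraries with exact Poisson 95% intervals, which cover counting error only. Labels were ranked by the mean of both libraries, and for *Gad2*, *Slc6a5*, *Gabrg3*, *Gabrr2*, *Gabrr3*, *Glrb*, *Gphn* and *Slc12a5* the first label was above the second in 1 of 2 libraries only. The preparation enriched vascular fragments, so the neurons and glia in it may not represent brain as a whole.

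Several brain labels did not match their markers, and labels are therefore used here only as names. Of 4 cortical interneuron markers, *Lhx6* was highest in Glut_14, at 42.8 and 52.8 CPM in control and CKO, *Adarb2* in GABA_22, with Glut_14 next at 6429 and 7232 CPM, and *Sst* and *Pvalb* in Glut_20. Glut_14 held 11.0 and 9.60 CPM of the vesicular glutamate transporter *Slc17a7*. Glut_21 had 4 of 4 Purkinje cell markers at their highest, among them *Car8* at 2615 and 2601 CPM, and Glut_5 had 4 of 4 cerebellar granule cell markers, among them *Etv1* at 1654 and 1600.4 CPM. GABA_9 led in 2 of 4 striatal markers, *Drd1* and *Drd2*, the latter at 214 and 219 CPM, whereas *Ppp1r1b* was highest in Glut_20 and *Foxp1* in glia. Glut_20 combined *Slc17a7* at 507 and 494 CPM and *Sst*, an interneuron gene, at 423 and 410.2 CPM, and so mixed markers of more than 1 class. The OPCs label led in 3 of 4 oligodendrocyte precursor markers but also held *Neurod1* at 106 and 206 CPM and *Rbfox3* at 371 and 962 CPM.

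*Gad1* and *Gad2* were not confined to labels that name GABA. GABA_22 was highest for *Gad1*, with 713 CPM (95% interval 618 to 819) in control and 291 CPM (155 to 497) in CKO, followed by Glut_20 with 214 and 191 CPM, Glut_14 with 200.4 and 198 CPM, Glut_21 with 136 and 157 CPM and GABA_9 with 107 and 115 CPM. For *Gad2*, GABA_22 held 578 CPM (95% interval 493 to 674) in control and 425 CPM (256 to 664) in CKO, and Glut_14 held 431 CPM (95% interval 401 to 462) in control and 441 CPM (405 to 479.8) in CKO. Glut_20, GABA_9, Glut_1 and Glut_21 followed with 287 and 258 CPM, 209.8 and 223 CPM, 131 and 132 CPM and 85.7 and 100.3 CPM. Glut_0, Glut_11 and Glut_17 stayed at or under 9.29 CPM in control, so the glutamatergic label covered clusters with and without GABA synthesis genes. Glut_1 also held *Slc17a6*, another vesicular glutamate transporter, at 91.9 and 93.8 CPM.

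In Glut_14, 61.6% of nuclei had a *Gad2* UMI at a median depth of 2530.5 UMIs, compared to 42.9% in GABA_9, 46.6% in GABA_22, 22.1% in Glut_1 and 0.563% in oligodendrocytes, the background type, at a median depth of 1314 UMIs. After thinning to 1000 UMIs these shares were 35.0%, 21.6%, 36.5%, 12.1% and 0.294%. All 4 neuronal labels were well above the oligodendrocyte background at equal depth, with 187 Glut_14, 125 GABA_22 and 451 oligodendrocyte nuclei left out. Other labels had higher thinned shares of *Gad2* than oligodendrocytes, among them 3.34% in OPCs, 1.69% in vSMCs and 0.966% in CP_6. *Gad1* gave 50.6% in GABA_22, 47.5% in Glut_21 and 39.2% in Glut_14, against 0.402% in oligodendrocytes, and 37.7%, 15.6%, 18.0% and 0.231% after thinning.

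*Slc32a1* was highest in Glut_20, with 77.8 CPM (95% interval 55.8 to 106) in control and 84.3 CPM (47.2 to 139) in CKO. *Slc6a5* was highest in the mean in Glut_1, with 43.4 CPM (95% interval 38.7 to 48.6) in control and 55.4 CPM (48.7 to 62.8) in CKO, and next in GABA_22, where the control library held 81.6 CPM and the CKO library 0, with an upper limit of 82.5 CPM from only 53 nuclei. UMIs of *Slc6a5* were in 6.88% of Glut_1 and 0.161% of oligodendrocyte nuclei, and after thinning in 3.84% and 0.0957%. *Slc6a9* was highest in astrocytes, with 145 CPM (95% interval 125 to 166) in control and 133 CPM (103 to 168) in CKO, then in CP_6, a label with ciliated cell markers, with 67.3 and 71.0 CPM. Nuclei with *Slc6a9* made up 13.7% of astrocytes and 15.0% of CP_6, and 12.4% and 7.05% after thinning, while oligodendrocytes, at 6.76% and 4.00%, are no clean background for this gene. The 2 glycine transporters thus peaked in different labels, with 0 UMIs of *Slc6a5* in astrocytes of either library.

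*Gabra6*, near absent from retina, reached 1307 CPM (95% interval 1251 to 1364) in control and 1166 CPM (1012 to 1337) in CKO in Glut_5. It was at 10 CPM or more in the mean of all 19 brain labels, OPCs being next at 136 and 311 CPM. *Gabrd* was likewise highest in Glut_5, with 224 CPM (95% interval 201 to 248) in control and 274 CPM (202 to 364) in CKO, and GABA_9 followed at 45.4 and 47.0 CPM. In Glut_5, *Gabra6* took 89.6% of alpha UMIs (98.8% per kb), *Gabrb2* 98.4% of beta UMIs (99.3% per kb) and *Gabrd* 97.6% of UMIs of *Gabrg1*, *Gabrg3* and *Gabrd*, a class that it also led per kb. This listed set differed from that of retinal GABA_AC, the highest retinal type of *Gabra2*, *Gabra4* and *Gabrd*. Whether single nuclei held these genes together was not tested.

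Astrocytes formed another distinct set. *Gabrb1* held 5319.7 CPM (95% interval 5198 to 5444) in control and 3966 CPM (3795 to 4144) in CKO, above Glut_17 at 1623 and 1559 CPM, and made up 98.5% of beta UMIs (96.6% per kb). *Gabrg1* held 183 CPM (95% interval 161 to 207) in control and 148 CPM (117 to 186) in CKO and made up 81.2% of its class (66.0% per kb), compared to 1.11% in Glut_0. *Gabra2* was 75.4% of alpha UMIs in astrocytes, but per kb 43.7% against 41.8% of *Gabra6*. Retinal glia did not share this set, since Müller glia held 9.57 CPM of *Gabrb1*, 0.640 CPM of *Gabrg1* and 5.40 CPM of *Gabra2*, and retinal astrocytes 12.8, 1.66 and 1.66 CPM. The brain and retina libraries were made and processed separately, so these levels are set side by side without a test.

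The remaining alpha genes divided the neuronal labels. *Gabra2* was highest in Glut_17, with 904 CPM (95% interval 850.4 to 959.8) in control and 930.4 CPM (870.4 to 993) in CKO, and *Gabra5*, a subunit known from hippocampus, also in Glut_17, with 192 CPM (95% interval 168 to 219) in control and 197 CPM (169.7 to 227) in CKO. *Gabra4* was highest in Glut_19, with 473 CPM (95% interval 437 to 510.2) in control and 322 CPM (288 to 359) in CKO, a label that led in 1 of 3 thalamic markers, *Prkcd*, whereas *Tcf7l2* was highest in oligodendrocytes and *Lef1* in ECs. In Glut_19 *Gabra4* took 46.4% of alpha UMIs (50.9% per kb). *Gabra3* was highest in Glut_1, with 116 CPM (95% interval 108 to 124) in control and 111 CPM (101 to 121) in CKO, only slightly above Glut_11 at 101 and 103 CPM. Per kb the leading alpha subunit was the same in 12 of 18 labels.

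*Gabrb2* was highest in Glut_5, with 1988 CPM (95% interval 1919 to 2058) in control and 1846 CPM (1650.3 to 2059) in CKO, followed by GABA_22 with 1369.8 and 1522 CPM, where it made up 98.5% of beta UMIs. *Gabrg3* was highest in GABA_9, with 2450.0 CPM (95% interval 2392 to 2509) in control and 2343 CPM (2266 to 2422) in CKO, and nearly as high in Glut_14 at 2246 and 2405 CPM, and it led its class in 15 of 17 labels by UMIs and in 7 per kb. *Gabrr* genes were near 0 in brain. *Gabrr1* was highest in CP_6, with 6.06 CPM (95% interval 3.70 to 9.36) in control and 8.05 CPM (4.02 to 14.4) in CKO, and *Gabrr3* in Glut_21, with 2.62 CPM (95% interval 0.541 to 7.67) in control and 1.21 CPM (0.0306 to 6.73) in CKO. *Gabrr2* was highest in GABA_22, with 0 CPM (95% interval 0 to 13.1) in control and 22.4 CPM (0.567 to 125) in CKO, but this rested on 1 UMI, and Glut_5 held 8.78 and 5.72 CPM.

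**Figure D3:**
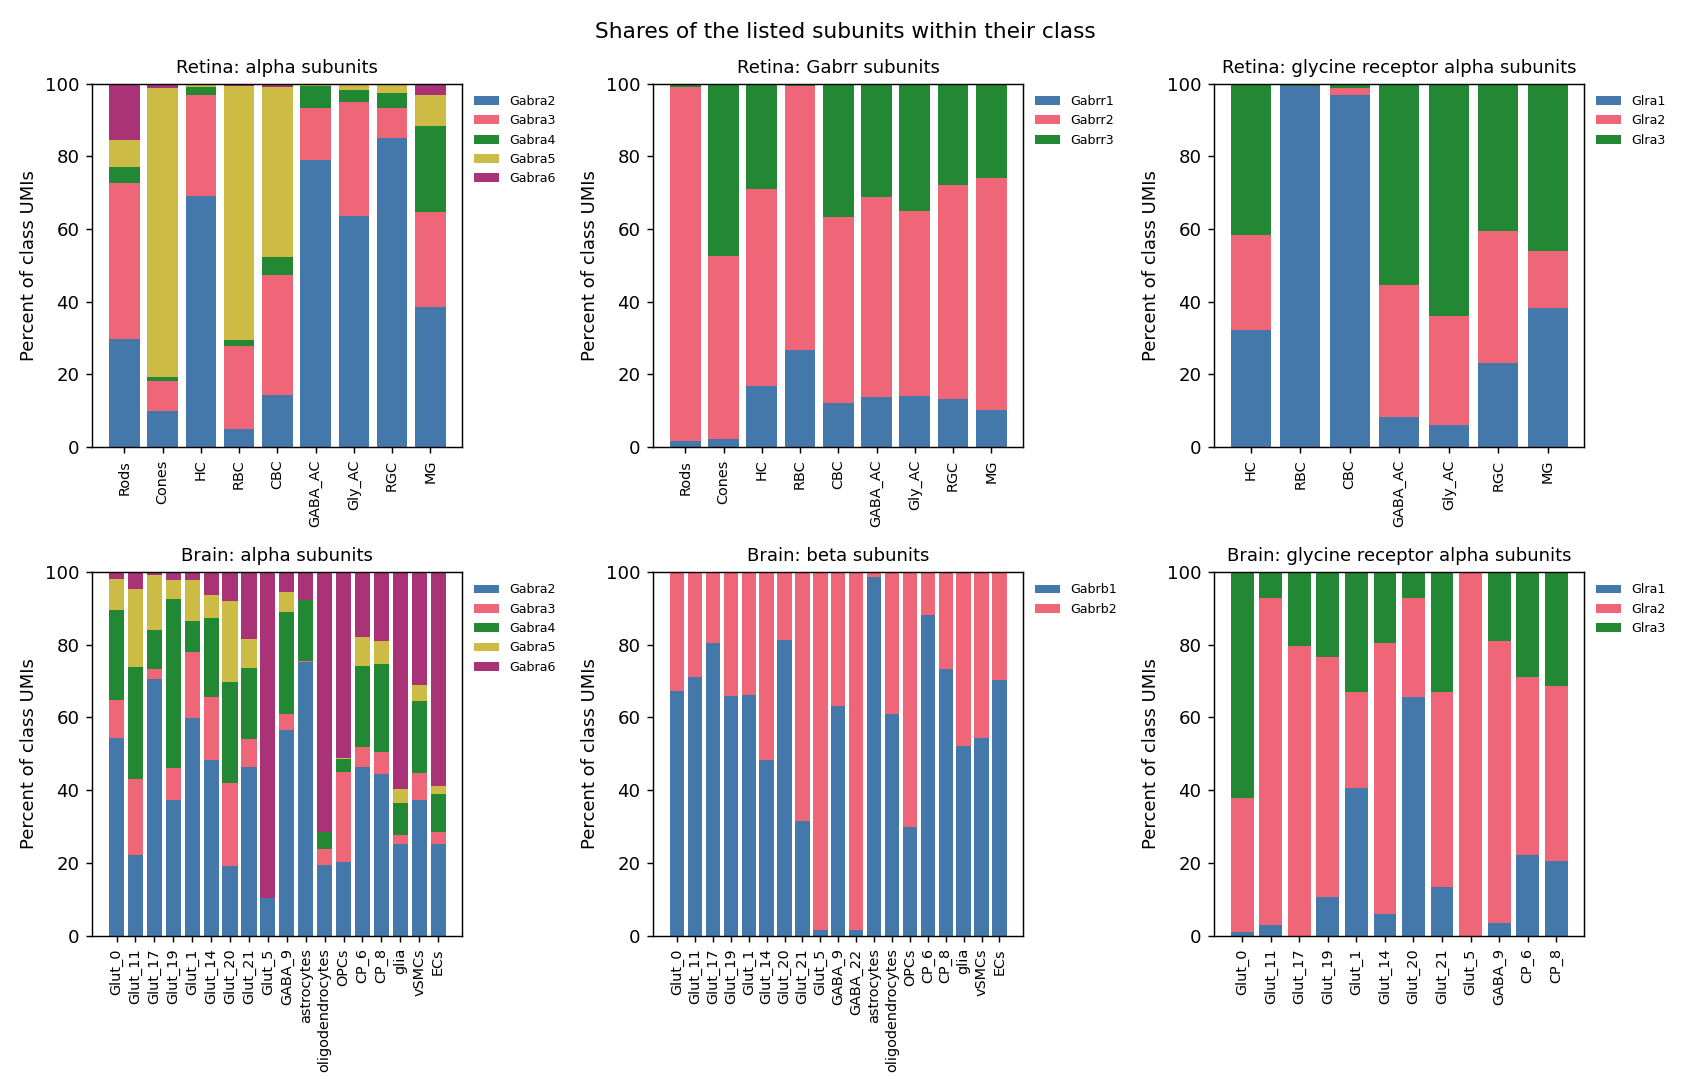
Percent of the UMIs of a subunit class (y axis) taken by each listed subunit in cell type labels with at least 50 class UMIs (x axis), for retina (top) and brain (bottom). *Gabra2* fills most of the alpha class in RGCs and GABA_AC, *Glra1* nearly all of the glycine receptor alpha class in RBCs and CBCs, *Gabra6* most of the alpha class in Glut_5, and *Gabrb1* nearly all of the beta class in brain astrocytes.

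Glycine receptor alpha genes met in Glut_1. *Glra1* held 143 CPM (95% interval 134 to 152) in control and 158 CPM (147 to 171) in CKO there and *Glra3* 123 CPM (95% interval 115 to 132) in control and 118 CPM (109 to 129) in CKO. *Glra2* was highest in Glut_5, with 174 CPM (95% interval 154 to 196) in control and 154 CPM (102 to 225) in CKO, where it made up all UMIs of the class, and Glut_11 followed with 149 and 138 CPM. *Glra3* took 62.2% of the class in Glut_0. Leaders of this class were the same per kb in all 12 labels with at least 50 class UMIs. *Glrb* was spread, with 163 CPM (95% interval 130.4 to 202) in control and 187 CPM (133 to 255) in CKO in OPCs, 171 and 176 CPM in Glut_1 and 149 and 126 CPM in oligodendrocytes.

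*Gphn* was high in all labels, from 284 and 346 CPM in ECs to 1523 CPM (95% interval 1458 to 1589.9) in control and 910.0 CPM (829 to 997) in CKO in astrocytes. *Gabbr2* was highest in Glut_21, with 952 CPM (95% interval 896 to 1010.0) in control and 1075 CPM (1006 to 1148) in CKO, and *Gabbr1* in Glut_20, with 408 CPM (95% interval 355 to 466) in control and 494 CPM (397 to 609) in CKO. *Nlgn2* and *Slc12a5* were highest in Glut_20 too, with 127 CPM (95% interval 98.5 to 161) in control and 140.5 CPM (90.9 to 207) in CKO and 304 CPM (95% interval 258 to 355) in control and 163 CPM (109 to 234) in CKO. Apart from Glut_20, whose markers were mixed, *Slc12a5* was led by Glut_1 at 147 and 172 CPM, and astrocytes held 2.20 and 3.96 CPM and oligodendrocytes 0 UMIs.

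**Figure D4:**
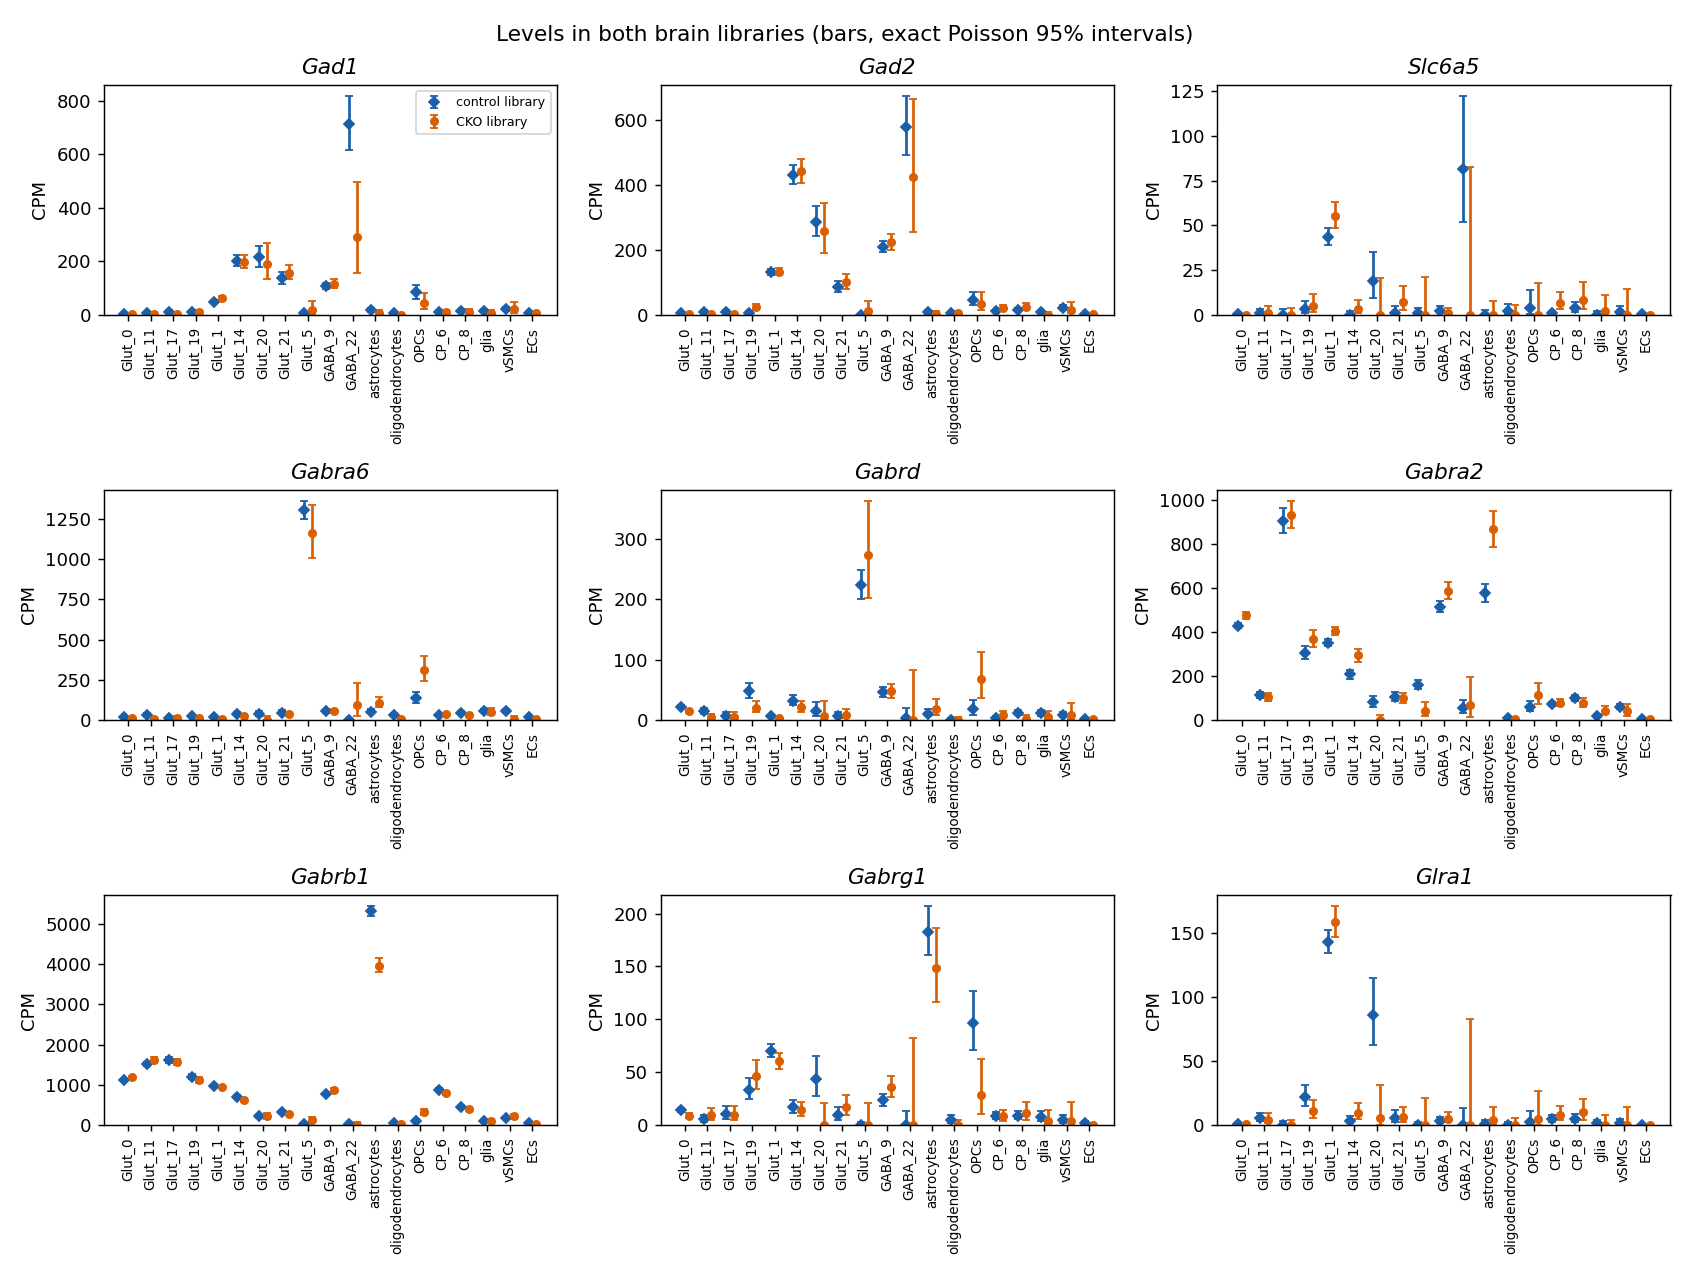
Level in CPM (y axis) of 9 genes in each brain cell type label (x axis), in the control library (blue diamonds) and the CKO library (orange circles), with exact Poisson 95% intervals that cover counting error only. *Gad1* and *Gad2* are present in Glut_14, Glut_20 and Glut_21 as well as in both GABA labels, *Gabra6* and *Gabrd* peak in Glut_5, and *Gabrb1* and *Gabrg1* peak in astrocytes.

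Whether loss of *Tgfbr1* in ECs came with a change of these genes in retinal neurons and glia was tested within 9 cell types, with batch and kit as terms. The control shared batch 1 with CKO replicates 1 to 3 only, so with these terms the fold changes compared the control with those replicates. No member passed an adjusted p of 0.05 in edgeR in any type: 0 of 179 member and type combinations were higher and 0 were lower in CKO. Over all genes 24 of 115806 (0.0207%) were higher and 14 (0.0121%) lower, a rate at which fewer than 1 of 179 would be found. At an unadjusted p under 0.05, edgeR gave 5 members higher and 5 lower, and DESeq2, which tested 240 combinations, gave 0 after adjustment and 3 higher and 6 lower without it. Without adjustment all genes gave 3314 higher and 2300 lower of 115806 in edgeR, and 2228 and 937 of 224931 in DESeq2. The median log2 fold change was -0.01 over the 179 combinations and 0 over all genes tested. The 179 values ranged from -3.61 to 6.21, and 161 of them lay within 1 log2 unit of the control, as did 107169 of 115806 over all genes. With a log2 CPM of at least 5, member values ranged from -0.88 to 1.01, and 105 of 106 lay within 1 log2 unit, as did 46068 of 46636 over all genes. All control information came from 1 library, which was assumed to vary like the CKO libraries, so small differences could not be resolved.

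The 2 smallest p-values were in Gly_AC. There *Gabrg3* had a log2 fold change of -0.43 (SE 0.13, edgeR p = 0.00323, adjusted p = 0.582 over all genes of the type), and the control, at 1230.3 CPM, was above all 10 CKO libraries. *Glra2* in Gly_AC had -0.54 (SE 0.17, edgeR p = 0.00418, adjusted p = 0.602 over all genes of the type), and its control value of 203 CPM was below that of 1 CKO library. Neither passed the adjusted threshold. Müller glia gave 4 of the 5 unadjusted higher values, for *Glra1*, *Gabbr2*, *Gabrr2* and *Slc12a5*, and a median of 0.52 over 18 members. Over all genes Müller glia also had the most unadjusted higher values of the 9 types, 702 of 12992, but the median log2 fold change over these genes was 0.0073. The summed level of 4 CBC markers in Müller glia was 11.2 CPM in the control and 16.7 to 158 CPM in CKO libraries (median 67.8), and its part in these values was not tested.

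In brain, ratios of CKO over control were read for members with at least 50 UMIs over both libraries, with no test, since each genotype has 1 library. Of 258 member and label combinations, 7 (2.71%) were at least 2-fold higher in CKO and 25 (9.69%) at least 2-fold lower. Over all genes 3277 of 107438 (3.05%) were higher and 6907 (6.43%) lower. The share of members that were higher was near that of all genes, and the share that were lower was somewhat above it, as it was for the 24 other pathway genes (5 higher and 19 lower of 179). Scaled with TMM factors the member counts were 4 and 30, and those of all genes 2390 and 8107. Of the 25 lower combinations, 4 were in GABA_22, of 7 members there, and 3 in vSMCs, of 10. Over all genes 203 of 884 were lower in GABA_22, which had 198 control and 53 CKO nuclei, and 398 of 6796 in vSMCs.

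*Gabra6* was past 2-fold in 7 labels, more than any other member. It was lower in Glut_1 with a ratio of 0.187 (95% interval 0.104 to 0.315), in Glut_11 with 0.236, in ECs with 0.297, in Glut_0 with 0.492 and in vSMCs with 0.0721, and higher in OPCs with 2.28 (95% interval 1.60 to 3.24) and in astrocytes with 2.11 (95% interval 1.45 to 3.06). In Glut_5 itself, the label with the highest level, the ratio was 0.892 (95% interval 0.769 to 1.03). The summed level of the 4 cerebellar granule cell markers moved in the same direction in each of these 7 labels, with ratios of 0.251 in Glut_1, 0.331 in Glut_11, 0.864 in ECs, 0.572 in Glut_0, 0.846 in vSMCs, 2.06 in OPCs and 1.27 in astrocytes, though far less than *Gabra6* did in ECs and vSMCs. All 4 markers were highest in Glut_5, of which the control library held 1858 nuclei and the CKO library 251. The part of granule cell RNA in the *Gabra6* values of other labels was not tested.

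In GABA_22, *Gad1* had a ratio of 0.408 (95% interval 0.213 to 0.713), *Gabbr2* 0.434 (95% interval 0.239 to 0.732) and *Slc12a5* 0.207 (95% interval 0.0245 to 0.780), whereas *Gad2* had 0.735 (95% interval 0.431 to 1.19) and *Gabrb2* 1.11 (95% interval 0.845 to 1.44). GABA_22 is a small cluster, and a different mix of neurons in both libraries cannot be told apart from a change within them. *Gad1* in the other GABA-synthesizing labels stayed close to the control, with ratios of 0.985 in Glut_14, 1.16 in Glut_21 and 1.08 in GABA_9.

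ECs, in which Cre was active, had 10 members with at least 50 UMIs, of which 2 were higher and 1 lower past 2-fold. Over all genes of ECs 1073 of 11351 were higher and 443 lower, so higher values were common in this label. *Gabbr1* was at 6.55 CPM in control and 16.2 CPM in CKO, a ratio of 2.47 (95% interval 1.70 to 3.68), and *Nlgn2* at 3.79 and 9.34 CPM, a ratio of 2.46 (95% interval 1.497 to 4.20), both from low levels. All 4 pericyte markers were also highest in the EC label among the 19 labels used, which do not include the pericyte label. Further combinations past 2-fold were *Gabrb1* in Glut_5 at 5.73 (95% interval 3.20 to 10.0) and in OPCs at 2.89 (95% interval 1.99 to 4.21), *Gabra2* in glia at 2.24 and in Glut_5 at 0.251, and *Gabra3* and *Gabrg1* in OPCs at 0.161 and 0.299. *Gabrb2* was lower in vSMCs at 0.190 and in oligodendrocytes, from 54 UMIs to 0, and *Glrb* was lower in 4 labels, among them glia at 0.137. The other lower combinations were *Gabra5* in CP_6 and Glut_20, *Gabrg3* in Glut_20, *Gabrd* in Glut_1 and Glut_19, *Gad2* in Glut_0, *Slc12a5* in Glut_5 and *Gabbr2* in vSMCs, at ratios of 0.288 to 0.473.

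Of 24 other genes of the pathway, 0 of 145 retinal combinations passed an adjusted p of 0.05 in edgeR in either direction, with 5 higher and 5 lower at an unadjusted p under 0.05, and 0 passed in DESeq2, with 4 and 2 unadjusted. Genes named here had a level at least 5 times their median over types, in brain by the mean of both libraries, and for *Aldh5a1*, *Igsf9b*, *Insyn2a*, *Gabre*, *Gabrq* and *Glra4* the first brain label was above the second in 1 of 2 libraries only. Among transporters, *Slc6a11* (GAT3) was highest in retinal astrocytes, at 511 ± 182 CPM (SD, n = 4), and in brain astrocytes, at 734 and 813 CPM, and *Slc6a13* (GAT2) in brain glia, a label with fibroblast markers, at 906 and 377 CPM. *Slc12a2* (NKCC1), which imports chloride, was highest in HCs at 369 ± 136 CPM (SD, n = 11) and in CP_8, a label with choroid plexus markers, at 737 and 770.0 CPM. HCs thus held the importer at a level above that of any other retinal type, together with 179.7 CPM of the exporter *Slc12a5*.

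Among enzymes, *Abat*, which breaks down GABA, was highest in retinal astrocytes at 243 ± 37.3 CPM (SD, n = 4), *Aldh5a1* in brain astrocytes at 54.3 and 65.3 CPM, and *Gldc*, which breaks down glycine, in Müller glia at 244 ± 28.3 CPM (SD, n = 11) and in GABA_22 at 809 and 985 CPM, with *Gcsh* in Glut_20 at 28.5 and 39.3 CPM. GABAB partner subunits were graded: *Kctd8* reached 1822 ± 301 CPM (SD, n = 11) in Gly_AC and 2546 and 2846 CPM in Glut_5, *Kctd16* 1616 ± 514 CPM (SD, n = 12) in RGCs and 1882 and 1994 CPM in Glut_0, and *Kctd12* and *Kctd12b* 81.2 and 70.6 CPM and 104 and 149.6 CPM in brain ECs. *Kctd12b* was at 7.05 CPM in retinal astrocytes, above Müller glia in 2 of 4 libraries.

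Synaptic organizers with such peaks were *Shisa7* in GABA_9 at 67.5 and 81.9 CPM, *Slitrk3* in RBCs at 63.2 ± 13.1 CPM (SD, n = 11), *Iqsec3* in Glut_1 at 163 and 216 CPM, *Igsf9b* in Glut_5 at 441 and 360.1 CPM, *Insyn1* in Glut_20 at 68.3 and 50.6 CPM and *Insyn2a* in GABA_22 at 21.3 and 67.1 CPM, the latter from 6 and 3 UMIs. In retina the highest mean of *Shisa7*, 20.7 ± 28.7 CPM (SD, n = 12) in RGCs, came from CKO replicate 4, and in 0 of the 11 libraries with both types were RGCs above GABA_AC, at 17.1 ± 4.81 CPM. The trafficking gene *Gabarap* was at 258 and 303 CPM in Glut_20, with a median of 0 CPM over labels. Receptor subunits on this list were low, with *Glra4* at 6.03 ± 1.44 CPM (SD, n = 11) in Gly_AC and 3.80 and 0 CPM in Glut_20, *Gabre* at 0.930 CPM in retinal astrocytes and 10.6 and 6.99 CPM in CP_8, and *Gabrq* at 1.90 and 16.9 CPM in Glut_20. For *Gabre*, retinal astrocytes were above cones, the next type, in 1 of 4 libraries only.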

How the data were processed

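PIPseq libraries of nuclei were analysed: 12 of retina and 2 of brain vascular fragments. The authors deposited UMI counts per gene and nucleus, made with PIPseeker on GRCm39, then CellBender, SOLO and curation by hand, whereas the labels name mm10 and Seurat. Cell type labels were those of the authors. UMIs were summed per library and label and scaled to CPM. Sums needed at least 20 nuclei and 20000 UMIs. Retinal types were tested with edgeR 4.0.16 (limma 3.58.1, R 4.3.3; quasi-likelihood, TMM, filterByExpr, terms for batch, kit and genotype; Benjamini-Hochberg over all genes of a type, threshold 0.05), and DESeq2 1.42.0 was the alternative. Both were tested on simulated data. Microglia and pericytes of brain fell under the minimum in the CKO library only, at 11 nuclei with 14637 UMIs and 22 nuclei with 9213 UMIs. The control library held 129 and 201 nuclei of these labels. Brain ratios used genes with at least 50 UMIs over both libraries, with exact conditional binomial intervals. Intervals for levels were exact Poisson. Shares of nuclei were also computed after thinning to 1000 UMIs. Sums, intervals and figures were made in Python 3.11.15 (matplotlib 3.10.9, pandas 2.3.3, scipy 1.17.1, numpy 2.4.6). The members and lists were chosen with earlier results of these data known. Each member was given library by library in the retinal and the brain type with its highest mean, and other pathway genes were named when their level was at least 5 times their median over types. Of the listed genes and markers, 3 are not reported here. Alternatives changed tool, filter, terms, libraries, nuclei, scaling, adjustment and minimum UMIs. Genes were placed with GENCODE vM39, and promoters with RefSeq.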

Additional observations from a re-analysis of the deposited data

Results flagged for a closer look

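Members were checked in their highest retinal type for a single CKO library far from the others, apart from *Gabrg1* and *Gabbr2*, whose highest type was RGC, since the check covers groups of at most 10 libraries and RGCs had 11. *Slc6a5* in Gly_AC was 126.893 CPM in CKO replicate 6, from 231 UMIs, and the nearest library was at 87.4 CPM. *Glra2* in Gly_AC was 211.891 CPM in CKO replicate 11, from 477 UMIs, and the nearest library was at 159 CPM. These were 2 of 25 groups checked, and chance alone flags about 1 in 20 groups. Over all ranked retinal types but RGCs, 42 of 235 groups had such a library, 10 of them in rods and 9 in astrocytes. The causes were not tested.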

How the results depend on the processing

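Counts of members in retina were 0 in both directions under every setting run. Of the other pathway genes, *Kctd8* passed as higher in RBCs and lower in Müller glia without the expression filter and as higher in RBCs in batch 1 alone, and none passed under the other settings. Counts over all genes moved, with 24 higher and 14 lower at first: 12 and 9 with adjustment over all types, 114 and 18 with DESeq2 and 322 and 190 without the expression filter, both of 224931 combinations where the first counts were of 115806, 2 and 5 with kit alone, 2 and 5 with batch alone, 81 and 34 in batch 1 alone, and 15 and 13 from nuclei with at least 1000 UMIs. Leaving out CKO replicate 1, 2 or 3 in turn gave 28 to 40 higher and 14 to 31 lower. Why these counts moved was not tested. In brain, members past 2-fold higher and lower numbered 4 and 30 of 258 with TMM, 8 and 19 of 248 in nuclei with at least 1000 UMIs, 12 and 48 of 328 with a minimum of 20 UMIs, and 0 and 5 of 156 with a minimum of 200. Over all genes these were 2390 and 8107 of 107438, 3753 and 5360 of 103989, 8834 and 15379 of 151567, and 637 and 1251 of 49988. Division by gene length moved 14 of 41 leading subunit shares in retina and 56 of 67 in brain beyond their 95% intervals (in retina also beyond their spread over libraries), so a lead of 1 gene within a type depends on this choice where the report gives no value per kb, and nuclei with at least 1000 UMIs moved 0 and 8. The type with the highest retinal level stayed the same for 23 to 26 of 27 members under each planned setting. It became RGC for *Gabrb2* and *Gabra5* with the v4.0 PLUS kit and with at least 1000 UMIs, HC for *Gabrg1* and astrocytes for *Nlgn2* with the v4.0 PLUS kit and in batch 1, GABA_AC for *Gabra3* with the v5.0 kit and TMM, and GABA_AC for *Gabbr1* and CBC for *Slc12a5* with the v5.0 kit. *Gabra6* changed with the v5.0 kit, with at least 1000 UMIs and with pooled UMIs. *Slc32a1* in GABA_AC was 31.1 CPM with the v5.0 kit and 11.7 CPM in batch 1, and *Gabra6* in rods 0.224 CPM in nuclei with at least 1000 UMIs and 0.118 CPM with the v5.0 kit. With 1 control library in each tissue, differences between genotypes cannot be separated from differences between libraries.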
